A study of Mus musculus with 6 samples.

Results

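The hypoxia-inducible factor (HIF) system was followed through 10 genes, chosen by symbol after the low level of Epas1 with PA + PS2 had been seen. They are Epas1, Hif1a, Arnt, Arnt2, Vegfa, Egln1, Egln2, Egln3, Vhl and Hif1an. All 10 were found among the 54232 Ensembl genes counted in every library, and all 10 were among the 17299 genes that passed the filter on low counts. The levels of Epas1 in PA + PS2 chose the set, so the differences of Epas1 in the comparisons with PA + PS2 are given as a description with no test.

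RNA was sequenced in 6 libraries of wildtype cortical neurons from CD1 mice, an outbred stock, in 3 groups of 2 repeats. In the library names the control is PDL, PA (peptide amphiphile) is IKVAV, and PA + PS2 is IKVAV with PEDOT-S_OH, PEDOT being a conducting polymer. All libraries, those of the control too, have peptide amphiphile as their treatment label. Nothing in the sources used here gives the dose, the time in culture, the age of the mice, the oxygen level, or whether repeats were separate cultures or animals. Each p-value therefore measures only the spread between these samples, which may be technical. Libraries held 30714311 to 33923681 counts, so that 1 CPM (count per 1e6 counts, TMM-scaled) stands for 30.7 to 33.9 counts. The summed level of 14 neuron markers was 6640 to 7203 CPM in the 6 libraries.

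HIF is a transcription factor made of an alpha subunit, encoded by Hif1a, Epas1 or Hif3a, and a partner encoded by Arnt or Arnt2. In the presence of oxygen the prolyl hydroxylases encoded by Egln1, Egln2 and Egln3 mark the alpha subunit, the product of Vhl recognises the mark and directs the subunit to degradation, and the asparaginyl hydroxylase encoded by Hif1an blocks its contact with coactivators. Much of this control acts on the protein and is not seen in transcript counts. In brain, Epas1 is known for its expression in endothelial cells, pericytes and astrocytes, and Vegfa encodes a secreted growth factor for blood vessels that HIF induces.

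HIF binds short DNA elements with the core ACGTG or GCGTG, and Egln1 and Egln3 are themselves known HIF targets. The 250 bases before the transcription start of 3 members are shown with these cores, on either strand, in capitals. Hif1a is shown as the closest relative of Epas1, and Egln1 and Egln3 as the oxygen sensors that HIF induces. Sequences are RefSeq promoters on GRCm38.p6, at chr12:73907617-73907866 (plus strand), chr8:124949255-124949504 (minus strand) and chr12:54203875-54204124 (minus strand). The window of Hif1a lies inside the gene coordinates given below, and that of Egln1 overlaps them. For these genes the RefSeq start therefore differs from the gene start given below.
Hif1a: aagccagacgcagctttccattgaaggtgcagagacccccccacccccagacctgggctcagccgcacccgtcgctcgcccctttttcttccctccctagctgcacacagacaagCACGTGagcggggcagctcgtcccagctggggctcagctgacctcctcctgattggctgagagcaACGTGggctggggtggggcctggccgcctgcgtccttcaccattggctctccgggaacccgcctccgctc
Egln1: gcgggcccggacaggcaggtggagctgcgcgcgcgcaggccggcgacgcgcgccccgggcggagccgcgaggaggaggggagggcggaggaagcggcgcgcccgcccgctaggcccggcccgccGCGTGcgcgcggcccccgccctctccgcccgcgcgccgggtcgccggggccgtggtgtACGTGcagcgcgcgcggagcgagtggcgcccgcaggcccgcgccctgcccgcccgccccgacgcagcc
Egln3: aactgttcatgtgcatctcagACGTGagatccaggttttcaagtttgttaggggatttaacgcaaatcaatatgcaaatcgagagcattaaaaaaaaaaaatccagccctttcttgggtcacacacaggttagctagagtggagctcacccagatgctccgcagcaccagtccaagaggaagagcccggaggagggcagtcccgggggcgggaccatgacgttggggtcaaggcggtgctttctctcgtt
The CACGTG of Hif1a holds the core on both strands, overlapping, which gave 3 matches in this promoter against 2 for Egln1 and 1 for Egln3. RefSeq promoters were found for 9 of the 10 members, and the missing one is Epas1. Over windows of 300 bases, from 250 before to 50 after the start, 6 of the 9 genes (66.7%) had a match. By gene, a match was present in 66.4% of the 11692 tested genes with a promoter in the table and in 87.2% of 47 shared HIF targets listed here; the share among the members is close to that of genes in general. A match describes the letters in this window only.

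Epas1 stood apart from the rest of its system in PA + PS2. It lies on chromosome 17 from 86753700 to 86833410 of GRCm38, on the plus strand. Its level was 7.12 CPM in control repeat 1 and 8.61 in control repeat 2. PA repeat 1 had 9.72 CPM and PA repeat 2 had 5.27. Both PA + PS2 libraries were low, at 1.69 and 1.72 CPM, or 53 counts each against 167 to 301 counts in the other 4 libraries. The PA + PS2 libraries lay below every control and PA library (mean 1.71 CPM, SD 0.0228, n = 2). With 53 counts in each, this SD says little about the spread of the group. The mean was 7.86 CPM ± 1.05 (SD, n = 2) in the control and 7.50 ± 3.15 in PA.

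On the log2 scale Epas1 was lower by 2.20 in PA + PS2 than in the control (log2 fold change -2.20, standard error 0.33), a level 4.60-fold lower. Within repeats the log2 difference was -2.04 in repeat 1 and -2.28 in repeat 2. Against PA the log2 fold change was -2.13, 4.39-fold lower, and the differences within repeats were -2.48 and -1.58. Both comparisons use the same PA + PS2 libraries and are not independent of each other. PA alone gave no difference beyond the spread between repeats. The log2 fold change of PA versus control was -0.07 (95% interval -0.76 to 0.62, adjusted p = 1.00 in the edgeR quasi-likelihood test), with 0.45 in repeat 1 and -0.70 in repeat 2. In these bulk samples, fewer cells of a type that expresses Epas1 and less Epas1 RNA per cell cannot be told apart.

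**Figure D1:**
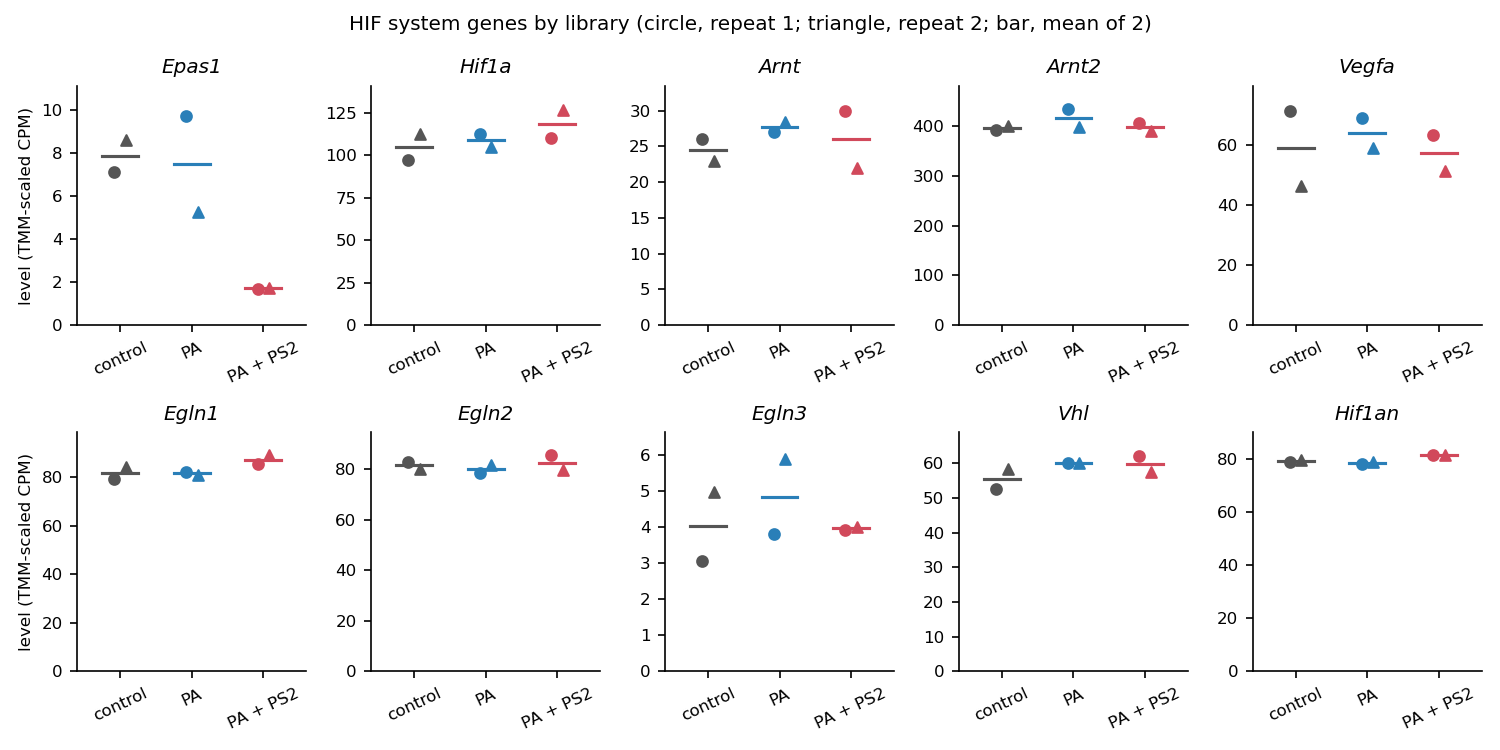
Level of each HIF system gene in TMM-scaled CPM (y axes start at 0 and differ between genes) in the 3 groups; circles are repeat 1, triangles repeat 2 and bars the mean of 2 libraries. Epas1 is at 1.69 and 1.72 CPM in PA + PS2 and at 5.27 to 9.72 in the other 4 libraries, while 0 of the other 9 genes has both PA + PS2 libraries below both controls.

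None of the other 9 members was called in PA + PS2. In PA + PS2 versus control, 0 of 9 passed an adjusted p of 0.05 in edgeR, where 0% of the 17299 genes passed, and 0 of 9 had an unadjusted p under 0.05, against 1178 of all genes. With the repeat number as a block 0.699% of all genes passed, and again 0 of the 9 members, the smallest adjusted p being 0.477 (Hif1a); in DESeq2 the smallest was 0.994. Their log2 fold changes ran from -0.04 (Vegfa) to 0.17 (Hif1a), with a median of 0.04. In 0 of the 9 did both PA + PS2 libraries lie below both controls, where 17.1% of all genes did so, and 2 (Egln1 and Hif1an) lay above them, where 16.6% of all genes did. An adjusted p above the threshold does not show that a gene did not differ, and the intervals below give the sizes that these libraries leave possible.

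Hif1a, whose product is the alpha subunit most widely used in response to low oxygen, lies on chromosome 12 from 73901375 to 73947530. Its level was 97.1 and 113 CPM in the control libraries, 113 and 105 in those with PA alone, and 110 and 127 in those with PA + PS2. The groups overlapped, and the PA + PS2 repeat 2 library was the highest of the 6. Its log2 fold change in PA + PS2 against the control was 0.17 (95% interval -0.06 to 0.41, edgeR adjusted p = 0.863), positive in both repeats (0.18 and 0.17). The upper bound is 1.33-fold, and the lower bound lies far from the difference seen for Epas1. An antisense gene, Gm15283, shares 330 exon bases with Hif1a and had 5 to 32 counts; no source used here says whether counting used strand.

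Per kilobase of exon, which allows levels of different genes to be compared, Epas1 was below Hif1a in every library. In the control its level was 1.27 and 1.54 CPM per kilobase, against 16.5 and 19.1 for Hif1a. Hif1a was thus 12.9 and 12.4 times as high as Epas1 in the control and 11.01 and 18.9 times in PA. In PA + PS2 it was 61.8 and 69.7 times as high. The share of Epas1 in the sum of both was 5.04% to 8.33% in the control and PA libraries and 1.59% and 1.41% in PA + PS2. The levels of Hif1a overlapped between the groups, whereas those of Epas1 in PA + PS2 lay below all others.

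Neither partner subunit was called in any comparison, and Arnt2 was above Arnt in every library. Arnt2, the form that is abundant in neurons (chromosome 7, 84246278 to 84410176, minus strand), had 392 and 400 CPM in the control libraries, 436 and 400 in those with PA alone, and 408 and 390 in those with PA + PS2. Its log2 fold change in PA + PS2 against the control was 0.01 (95% interval -0.16 to 0.18), the groups overlapping. Arnt, the widely expressed form (chromosome 3, 95434388 to 95497240, plus strand), had 26.1 and 23.0 CPM in the control libraries, 27.1 and 28.4 in those with PA alone, and 30.03 and 22.03 in those with PA + PS2. The PA + PS2 libraries held both the highest and the lowest Arnt value, and the log2 fold change against the control was 0.08 (95% interval -0.28 to 0.45). Per kilobase, Arnt made up 5.14% to 6.60% of the sum of Arnt and Arnt2 over the 6 libraries.

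The 3 prolyl hydroxylases were not called in any comparison, and Egln3 was far below the others in every library. Egln1, the main oxygen sensor of most cells (chromosome 8, 124908587 to 124949324, minus strand), had 79.0 and 84.1 CPM in the control libraries, 82.1 and 81.0 in those with PA alone, and 85.4 and 88.8 in those with PA + PS2. Both PA + PS2 libraries lay above the other 4, with a log2 fold change of 0.10 against the control (95% interval -0.08 to 0.27, edgeR adjusted p = 0.944). Egln2 (chromosome 7, 27158658 to 27166802, minus strand) had 82.8 and 80.2 CPM in the control libraries, 78.4 and 81.5 in those with PA alone, and 85.5 and 79.6 in those with PA + PS2, with overlapping groups. Its log2 fold change against the control was 0.02 (95% interval -0.16 to 0.20). Egln3, often the most strongly HIF-induced of the 3 (chromosome 12, 54178981 to 54203860, minus strand), had 3.07 and 4.97 CPM in the control libraries, 3.81 and 5.87 in those with PA alone, and 3.92 and 3.996 in those with PA + PS2. Both PA + PS2 values of Egln3 lay between the control values. At this low level the interval of its log2 fold change is wide, from -0.76 to 0.72 around -0.02, which spans 0.589 to 1.64 times the control level.

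Vhl and Hif1an, which act on the hydroxylated and the free alpha subunit, were also not called in any comparison. Vhl (chromosome 6, 113623959 to 113631633, plus strand) had 52.8 and 58.4 CPM in the control libraries, 60.0 and 60.0 in those with PA alone, and 62.2 and 57.5 in those with PA + PS2. Both PA libraries lay above both controls, and the log2 fold change of PA versus control was 0.11 (95% interval -0.10 to 0.32). Hif1an (chromosome 19, 44562850 to 44576274, plus strand) had 79.2 and 79.8 CPM in the control libraries, 78.2 and 79.0 in those with PA alone, and 81.8 and 81.8 in those with PA + PS2. Its groups did not overlap in any of the 3 comparisons, but the difference of PA + PS2 from the control was 0.04 on the log2 scale (95% interval -0.13 to 0.21, edgeR adjusted p = 0.993).

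Vegfa, the vessel growth factor among the members, differed by repeat number in all 3 groups and was not called between groups. It lies on the same chromosome as Epas1, at 46016993 to 46032369 on the minus strand. Its level was 71.1 and 46.4 CPM in the control libraries, 68.9 and 58.7 in those with PA alone, and 63.2 and 51.3 in those with PA + PS2. Repeat 2 was lower than repeat 1 each time. The log2 fold change of PA + PS2 versus control was -0.04 (95% interval -0.54 to 0.47), and with the repeat number as a block -0.02 (95% interval -0.23 to 0.20), both without a call.

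PA alone gave no call among the other 9 members either. In PA versus control, 0 of 9 and 0% of all genes passed, with log2 fold changes from -0.03 (Egln2) to 0.27 (Egln3) and a smallest adjusted p of 1.00 in edgeR. Both PA libraries lay above both controls for 2 members (Arnt and Vhl), where 12.1% of all genes did, and below them for 1 (Hif1an), where 9.69% did. In PA + PS2 versus PA, 0 of 9 passed, against 0% of all genes, or 1.52% with the repeat block. The log2 fold changes of the 9 ran from -0.29 (Egln3) to 0.12 (Hif1a), with a smallest adjusted p of 0.918, or 0.594 (Vegfa) with the block.

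**Figure D2:**
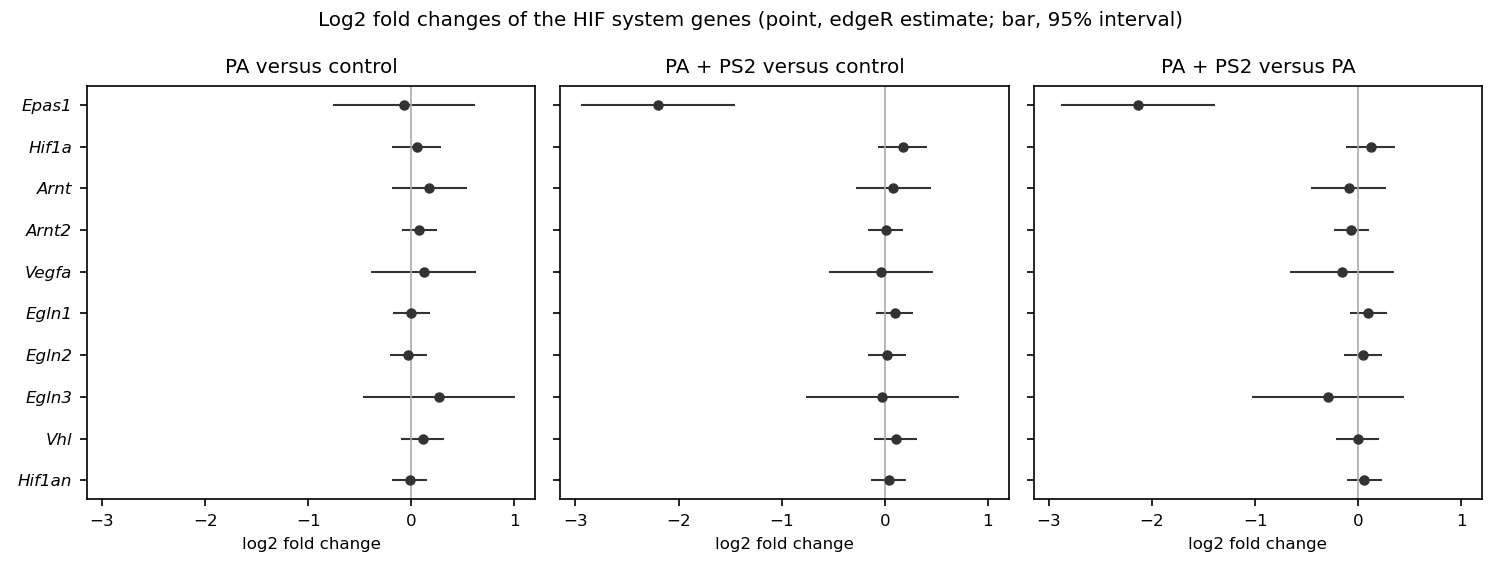
Log2 fold change (x axis) of each HIF system gene in the 3 comparisons; points are edgeR estimates and bars 95% intervals. Epas1 lies at -2.20 and -2.13 in the comparisons with PA + PS2, and the bars of the other 9 genes cross 0 in all 3 panels.

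By level per kilobase in the control, the order was Arnt2 (51.5 CPM per kilobase), Egln2 (29.1), Egln1 (22.7), Vhl (18.6), Hif1a (17.8), Vegfa (13.7), Hif1an (12.04), Arnt (3.07), Egln3 (1.51) and Epas1 (1.41). The libraries of Vhl and Hif1a overlapped, as did those of Hif1a and Vegfa, of Vegfa and Hif1an, and of Egln3 and Epas1, so the order within these pairs is not settled. In PA + PS2 the means of Egln3 and Epas1 were 1.49 and 0.305 CPM per kilobase, and their libraries no longer overlapped. Hif1a was above Vhl there by mean (20.1 against 19.96), with overlapping libraries.

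None of the 10 genes whose profile was closest to that of Epas1 was another of the members followed here. Whether HIF acts on any of these genes was not tested. Likeness was measured over the 6 libraries as the root-mean-square distance between log2 CPM profiles, each centred on its own mean, among 13640 genes with a mean of at least 1 CPM. The 10 closest, in order, were Ccn2 (a secreted matricellular protein), Lrrk1 (a kinase), Sdc4 (a cell surface proteoglycan), Prss23 (a serine protease), Cd248 (a membrane glycoprotein of pericytes and fibroblasts), Emp1 (a membrane protein), Ptpn14 (a phosphatase), Ltbp2 (an extracellular matrix protein), Csf1 (a growth factor for macrophages) and Axl (a receptor tyrosine kinase). Their distances ran from 0.23 (Ccn2) to 0.35 (Axl), and their Pearson's r with Epas1 from 0.94 to 0.99. Since the distance is driven by the low PA + PS2 libraries that chose Epas1, these values are a description; the 6 libraries also share repeats and scaling.

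Ccn2 had 12.7 and 20.9 CPM in the control libraries, 17.99 and 11.1 in those with PA alone, and 4.62 and 4.55 in those with PA + PS2. Cd248 had 2.26 and 3.40 CPM in the control libraries, 2.78 and 2.27 in those with PA alone, and 0.351 and 0.422 in those with PA + PS2, the lowest share of the control among the 10 (7.26-fold lower). In both genes, as in Epas1, the PA + PS2 libraries lay below all 4 others. The other HIF system genes ran from rank 4267 (Arnt2, distance 1.00) to rank 10405 (Hif1a, distance 1.08). Any gene that hardly moves lies near these distances, which the drop of Epas1 itself sets. Their ranks thus only restate that these genes did not fall as Epas1 did. Of 8 marker genes picked from the lists of other cell types, Cspg4 was at rank 16, Flt1 at 37, Pdgfrb at 40, Rgs5 at 89, Cdk1 at 124, Kdr at 168, Gja1 at 589 and Pdgfra at 6622. These picks do not stand for their lists, whose other markers were not placed. Both PA + PS2 libraries lay below both controls for 3 of 8 endothelial and 5 of 9 mural markers tested, against 17.1% of all genes. The 3 endothelial genes were Slc2a1, Kdr and Flt1. Slc2a1 is also on the list of shared HIF targets below, and Kdr and Flt1 are on that of targets tied to Epas1. The endothelial marker Egfl7 lay above both controls (1.85 and 1.92 CPM against 1.58 and 1.76), and Pecam1, Esam, Ocln and Slco1a4 overlapped them. Pdgfra was also lowest in PA + PS2 (2.04 and 0.975 CPM) despite its rank.

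**Figure D3:**
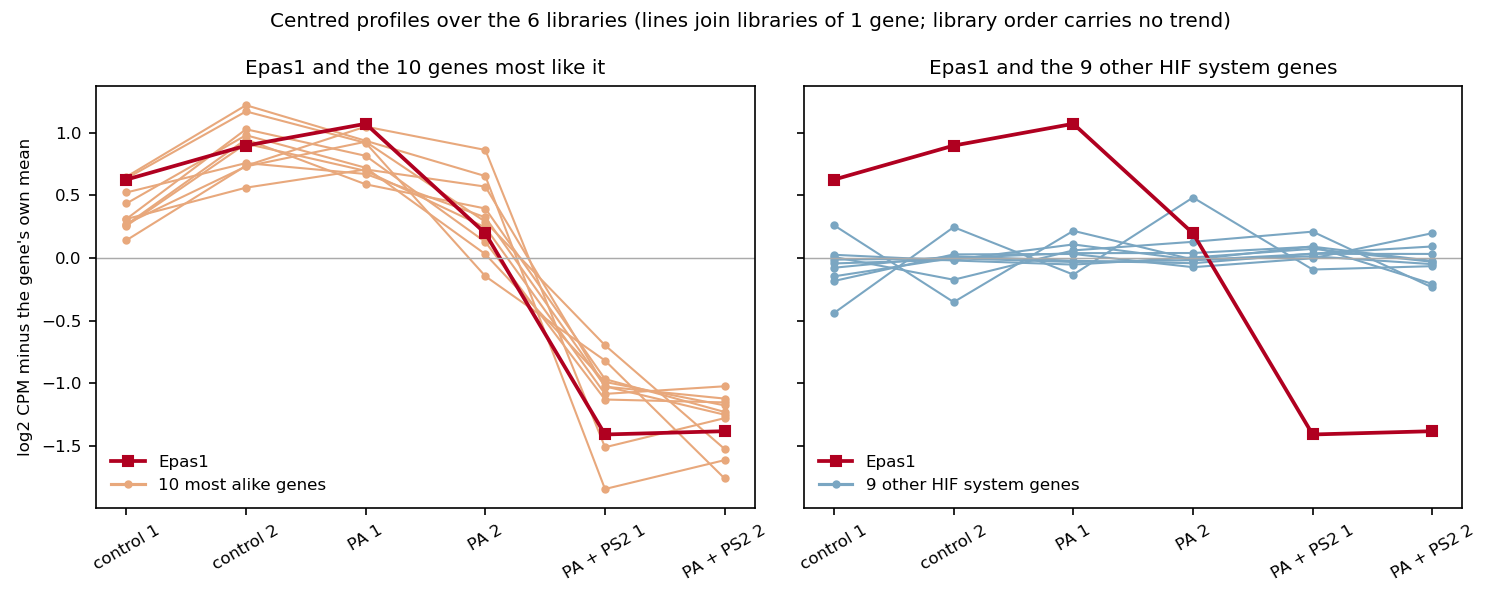
Log2 CPM minus the mean of each gene (y axis) in the 6 libraries (x axis), for Epas1 with the 10 genes closest to it (left) and with the 9 other HIF system genes (right); lines join libraries of 1 gene and carry no order. The 10 closest genes were picked for this shape and lie below 0 in both PA + PS2 libraries with Epas1, while the 9 HIF system genes lie closer to 0 there than Epas1.

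No relative of the HIF subunits and no gene of the turnover machinery was called, as was the case for nearly all genes. Of 12 relatives with the same DNA-binding and PAS domains, 11 were tested and 0 passed in any comparison, with or without the block; the share over all genes was 0% without it and 0.699% (against the control) or 1.52% (against PA) with it for PA + PS2. Hif3a, the remaining alpha subunit gene, named here after its values were seen, had 2.14 and 1.82 CPM in the control libraries, 1.098 and 2.24 in those with PA alone, and 2.55 and 1.49 in those with PA + PS2, with overlapping groups. Its level per kilobase was 0.380 and 0.223 in PA + PS2, where that of Epas1 was 0.302 and 0.308. Npas4, a transcription factor induced by neuronal activity, had 65.1 and 57.8 CPM in the control libraries, 54.1 and 61.6 in those with PA alone, and 50.2 and 35.3 in those with PA + PS2. It was lowest in PA + PS2, with a log2 fold change of -0.52 against the control (edgeR adjusted p = 0.615, or 0.172 with the block). The circadian factors Clock and Arntl had log2 fold changes of -0.01 and -0.12 in that comparison, and Npas3 had -0.08. Of 18 genes for turnover and coactivators, 0 passed in any comparison, beside the same shares over all genes. The chaperones Hsp90ab1 and Hsp90aa1 had log2 fold changes of -0.13 and -0.11 in PA + PS2 versus control, and Elob, a subunit of the ligase that holds the Vhl product, and Rack1, a scaffold protein, had 0.06 and 0.04.

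Most shared targets of the HIF factors were not called, and their median difference was small. Of 58 listed genes (Aldoa left out, since its symbol had 2 Ensembl genes), 56 were tested. Their median log2 fold change was 0.01 in PA versus control, -0.08 in PA + PS2 versus control and -0.10 in PA + PS2 versus PA, beside 0.01, 0.01 and 0.00 for all genes tested. Below 0 were 27, 37 and 38 of the 56 (48.2%, 66.1% and 67.9%), beside 47.7%, 48.1% and 48.9% of all genes. Both PA + PS2 libraries lay below both controls for 19 of the 56 (33.9%, against 17.1% of all genes). They lay above both controls for 7 (12.5%, against 16.6%). In PA + PS2 versus control 9 of the 56 had an unadjusted p under 0.05 in edgeR, against 1178 of the 17299 genes. Without the block 0 passed in each comparison; with it 2 fell in PA + PS2 versus control and 3 in PA + PS2 versus PA, where 0.578% and 1.32% of all genes were called lower. Abundant targets had small differences: in PA + PS2 versus control the log2 fold change was -0.02 for Mif (a cytokine), -0.05 for Pkm and -0.07 for Ldha (glycolytic enzymes), and -0.18 for Tfrc (the transferrin receptor). The 20 genes for glucose uptake and glycolysis in this list had medians of -0.01, -0.16 and -0.10 in the 3 comparisons.

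The members of this list called with the block were Anxa2, Zfp36l1 and Aldoc. Anxa2, a calcium-dependent membrane-binding protein, had 12.3 and 13.8 CPM in the control libraries, 17.2 and 12.1 in those with PA alone, and 7.36 and 5.20 in those with PA + PS2. It fell in both comparisons with PA + PS2 (log2 fold change -1.08 against the control, adjusted p = 0.0287, and -1.22 against PA, adjusted p = 0.00802, edgeR with the block). Zfp36l1, an RNA-binding protein that promotes mRNA decay, had 2.09 and 3.25 CPM in the control libraries, 1.97 and 4.39 in those with PA alone, and 0.701 and 0.357 in those with PA + PS2. It fell against the control (log2 fold change -2.26, adjusted p = 0.0484) and against PA (-2.48, adjusted p = 0.0217), again with the block only. For both genes the PA + PS2 libraries lay below the other 4. Aldoc, a glycolytic enzyme that is also on the astrocyte marker list used here, had 2.80 and 7.86 CPM in the control libraries, 4.13 and 20.2 in those with PA alone, and 1.66 and 4.97 in those with PA + PS2. It was higher in repeat 2 in every group, and it fell against PA with the block (log2 fold change -1.73, adjusted p = 0.00464) although the groups overlapped.
These calls were lost when a library was left out. In the block model without PA + PS2 repeat 2 none of them passed: the adjusted p of Anxa2 was 0.347 against the control and 0.0971 against PA, that of Zfp36l1 was 0.490 and 0.261, and that of Aldoc against PA was 0.0980. Against the control, the calls of Anxa2 and Zfp36l1 were also lost without control repeat 2 (0.596 and 0.472), and that of Zfp36l1 without control repeat 1 (0.147).

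The list of targets tied to Epas1 and to blood vessel growth had lower medians in PA + PS2, with calls in both directions. Of 27 listed genes, 23 were tested, and Epo, the erythropoietin gene, had 0 counts in all 6 libraries. The median log2 fold change was -0.00 in PA versus control, -0.38 in PA + PS2 versus control and -0.23 in PA + PS2 versus PA. Those of all genes were 0.01, 0.01 and 0.00. Below 0 were 12, 16 and 16 of the 23 (52.2%, 69.6% and 69.6%), beside 47.7%, 48.1% and 48.9% of all genes. Both PA + PS2 libraries lay below both controls for 9 of the 23 (39.1%, against 17.1% of all genes). They lay above both controls for 1 (4.35%, against 16.6%). Flt1, Kdr, Tek and Cdh5 in this list are also endothelial markers here. Without the block 0 passed, and with it 1 fell against the control, and 1 fell and 1 rose (0.202% of all genes were called higher) against PA. Loxl2, an enzyme that cross-links collagen, had 8.10 and 8.13 CPM in the control libraries, 9.07 and 4.01 in those with PA alone, and 3.47 and 1.56 in those with PA + PS2, and fell against the control (log2 fold change -1.80, adjusted p = 0.0267, with the block). Both PA + PS2 libraries of Loxl2 lay below the other 4.
Ccnd1, the cell cycle gene for cyclin D, had 10.8 and 13.5 CPM in the control libraries, 8.78 and 14.8 in those with PA alone, and 5.80 and 4.26 in those with PA + PS2. It fell against PA (log2 fold change -1.19, adjusted p = 0.0473, with the block). Nrp2, a receptor for semaphorins and VEGF, had 167 and 194 CPM in the control libraries, 162 and 173 in those with PA alone, and 187 and 264 in those with PA + PS2. It rose against PA (log2 fold change 0.41, adjusted p = 0.0486, with the block), the only member of the list called higher. Of the abundant members not called, Nrp1 had 104 and 129 CPM in the control libraries against 106 and 187 in those with PA + PS2, so the groups overlapped. Cited2, which competes with HIF for coactivators, Vegfb and Pdgfa had log2 fold changes of -0.14, 0.10 and 0.24 in PA + PS2 versus control.
Without PA + PS2 repeat 2, the block model gave adjusted p = 0.315 for Loxl2, 0.384 for Ccnd1 and 0.513 for Nrp2. The call of Loxl2 was also lost without control repeat 2 (0.335). Those of Ccnd1 and Nrp2 against PA were lost without PA repeat 2 (0.144 and 0.207), control repeat 1 (0.0594 and 0.0542) or control repeat 2 (0.0718 and 0.0619).

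**Figure D4:**
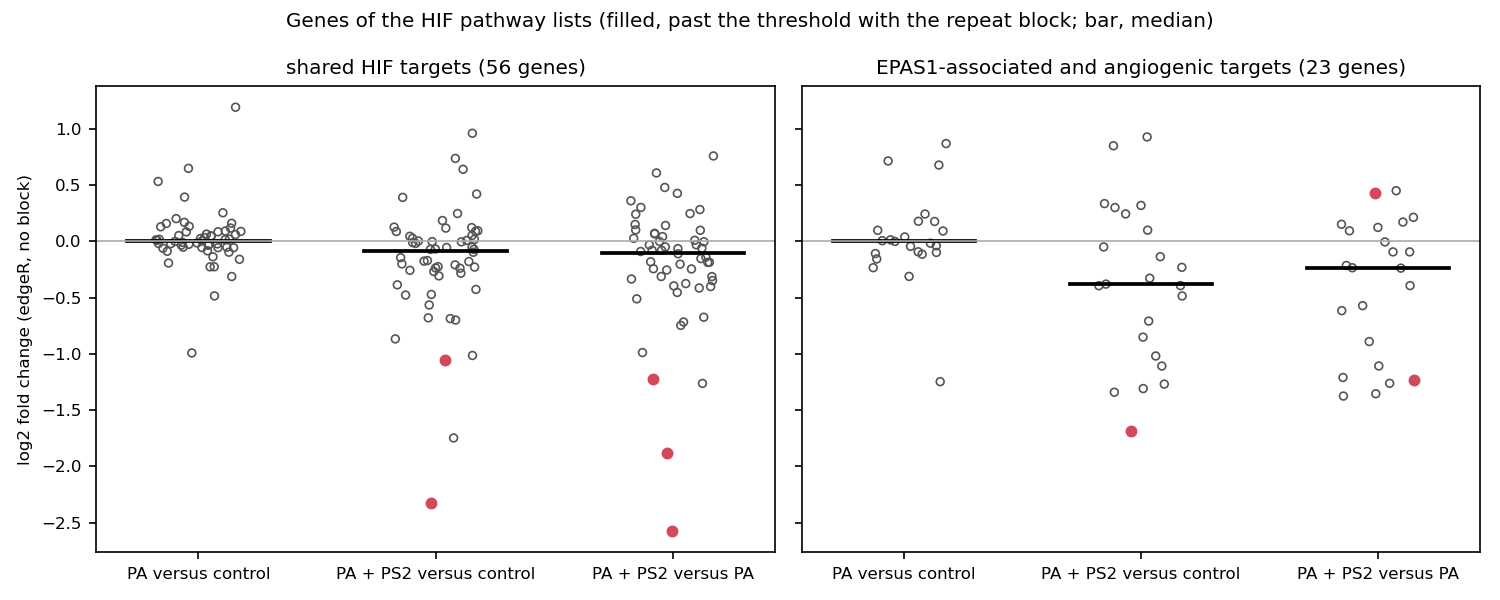
Log2 fold change without the block (y axis) of each tested gene of the 2 target lists in the 3 comparisons (x axis); black bars are medians and filled points passed an adjusted p of 0.05 with the repeat block. The medians of the 56 shared targets lie at 0.01, -0.08 and -0.10, and those of the 23 EPAS1-associated and angiogenic targets at -0.00, -0.38 and -0.23.

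Markers of other cell types moved in the same libraries as Epas1, and their part in its low level was not tested. The summed level of 12 mural cell markers (pericytes and smooth muscle) was 75.5 and 117 CPM in the control libraries, 108 and 77.0 in those with PA alone, and 45.3 and 31.5 in those with PA + PS2. Both PA + PS2 sums lay below the other 4, and 6 of the 12 genes were under 1 CPM in every library. The mural sum was led by Acta2, and the PA + PS2 libraries of Tagln, Vtn, Anpep and Myh11 overlapped the controls. With the block 1 of 9 mural markers tested fell against the control (Cspg4, also a marker of oligodendrocyte precursors) and 3 against PA (Cspg4, Pdgfrb and Rgs5). Over all genes 0.578% were called lower against the control and 1.32% against PA with the block, and these shares stand beside each count of called markers below. The 15 endothelial markers summed to 24.0 and 26.9 CPM in the control libraries, 24.6 and 21.8 in those with PA alone, and 17.9 and 19.1 in those with PA + PS2. Of these 9 were under 1 CPM in every library, Tie1 and Ly6c1 had 0 counts in all, and 0 of the 8 tested passed in any comparison. The endothelial and mural lists are thus low and only in part detected. The endothelial sum was led by Slc2a1. Of the endothelial genes tested, only Slc2a1, Kdr and Flt1 had both PA + PS2 libraries below both controls.

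Markers of oligodendrocyte precursors were among those that differed most. In PA + PS2 versus control 7 of the 8 were below 0, with a median log2 fold change of -2.03. In 6 of the 8 both PA + PS2 libraries lay below both controls, where 17.1% of all genes did so. With the block 1 fell against the control (Cspg4) and 2 against PA (Cspg4 and Lhfpl3). Olig1, a transcription factor of this lineage, had 12.5 and 37.9 CPM in the control libraries, 9.75 and 59.6 in those with PA alone, and 2.45 and 2.37 in those with PA + PS2. The summed level overlapped between groups (270 to 365 CPM in the control and PA libraries, 278 and 215 in PA + PS2) and was mostly Vcan, at 193 to 250 CPM. Without Vcan the sums were 53.6 to 149 CPM in the control and PA libraries and 28.02 and 21.1 in PA + PS2.

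Astrocyte markers, of a cell type known to express Epas1, were mixed. In PA + PS2 versus control 10 of the 14 were below 0, with a median log2 fold change of -0.57. Both PA + PS2 libraries lay below both controls for 5 of the 14 (35.7%, against 17.1% of all genes). They lay above both controls for 2 (14.3%, against 16.6% of all genes). Aldh1l1, a folate enzyme of astrocytes, had 4.98 and 13.2 CPM in the control libraries, 7.30 and 25.4 in those with PA alone, and 2.77 and 2.47 in those with PA + PS2. With the block 0 of 14 were called against the control and 4 fell against PA (Gja1, Aldoc, Sox9 and Mlc1). The sum, led by Slc1a2, was 430 and 529 CPM in the control libraries, 459 and 712 in those with PA alone, and 432 and 470 in those with PA + PS2, so it overlapped between groups.

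Progenitor and radial glia markers (11 genes) summed to 299 to 623 CPM in the control and PA libraries and to 231 and 262 in PA + PS2. With the block 3 were called lower against the control and 3 against PA, beside 0.578% and 1.32% of all genes. Cycling markers (10 genes) summed to 89.7 to 233 CPM in the control and PA libraries and to 49.4 and 55.0 in PA + PS2. Of these 5 fell against the control and 7 against PA with the block, beside the same shares of all genes (0.578% and 1.32%). Fibroblast and meningeal markers (12 genes) summed to 260 to 298 CPM in the control and PA libraries and to 219 and 165 in PA + PS2, but 144 to 222 CPM of this came from Vim, which is also on the progenitor list. Without Vim the fibroblast sums overlapped (69.5 to 96.4 CPM against 75.2 and 20.4), whereas those of the progenitor list did not (135 to 407 CPM against 86.96 and 118). By gene, 10 of 11 fibroblast markers tested were below 0 in PA + PS2 versus control, with a median log2 fold change of -0.74. In 6 of the 11 both PA + PS2 libraries lay below both controls (54.5%, against 17.1% of all genes). With the block 1 was called lower against the control and 2 against PA.
The sums of mural, endothelial, progenitor and cycling markers in PA + PS2 were all below those of the other 4 libraries, as the level of Epas1 was, with or without the most abundant gene of each list. The low endothelial sum rested on Slc2a1, Kdr and Flt1, which are also on the HIF target lists, and not on the list as a whole. The sum of the 8 mature oligodendrocyte markers was higher in PA + PS2 (74.3 and 107 CPM against 44.4 to 57.7) and was led by Mbp. Both PA + PS2 libraries lay above both controls for 5 of 7 tested (71.4%, against 16.6% of all genes), while Mog and Cnp overlapped. Called higher with the block were 2 of the 7 against the control and 1 against PA (0.121% and 0.202% of all genes). The 11 microglia and macrophage markers summed to 8.58 to 10.5 CPM in the 6 libraries. The neuron sum was led by Map2 and does not show each gene. Of the 14 neuron markers both PA + PS2 libraries lay below both controls for 5 (35.7%, against 17.1% of all genes). They lay above both controls for 2 (14.3%, against 16.6%). With the block 1 neuron marker was called lower against PA.

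**Figure D5:**
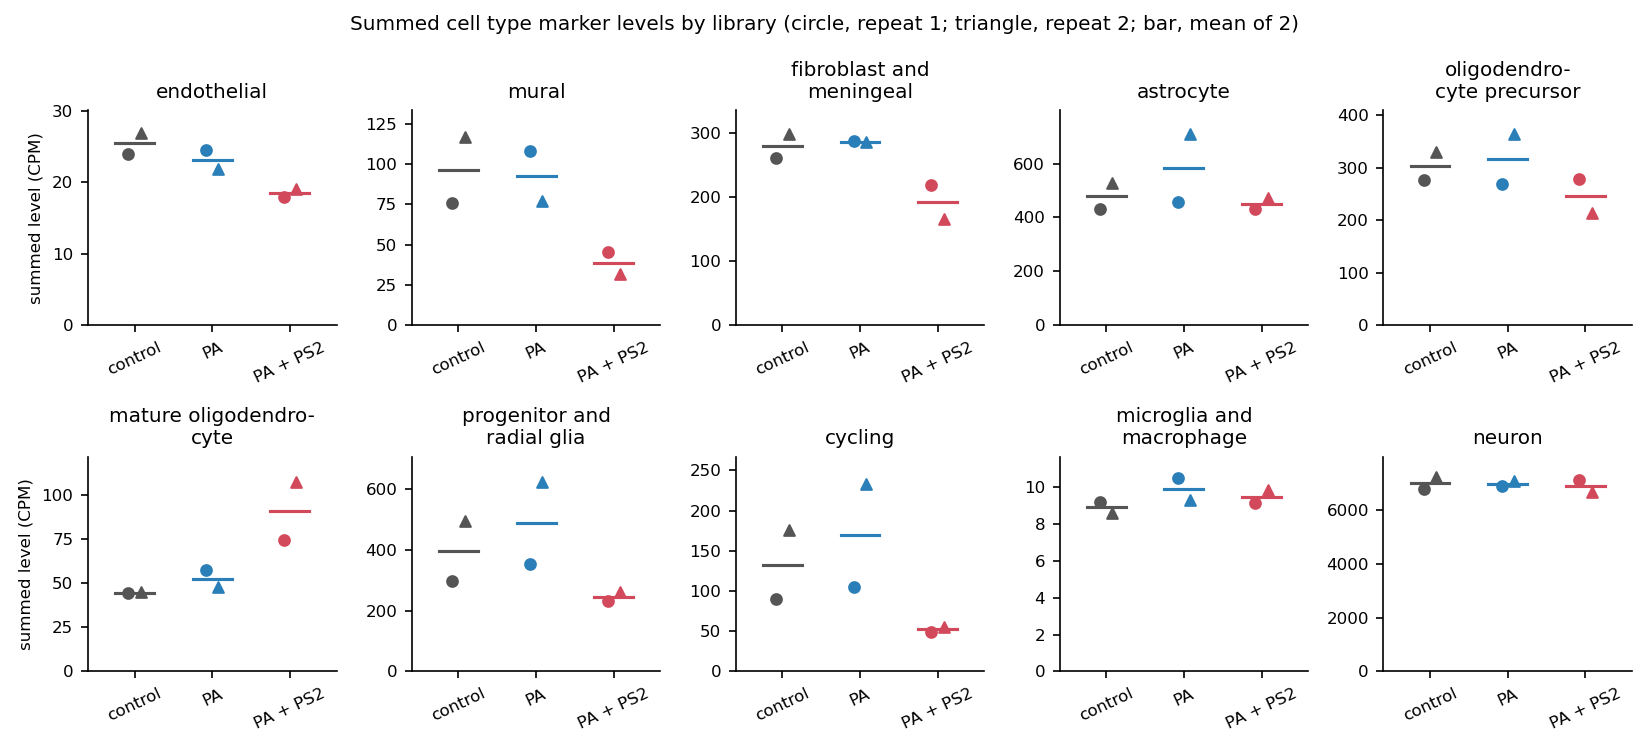
Summed level of each cell type marker list in CPM (y axes start at 0 and differ between lists) in the 3 groups; circles are repeat 1, triangles repeat 2 and bars the mean of 2 libraries. The mural, endothelial, progenitor and cycling sums are lowest in both PA + PS2 libraries, as is that of the fibroblast list unless Vim is left out, and the neuron sum lies between 6640 and 7203 CPM in all 6 libraries.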

How the data were processed

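The authors deposited 1 table of raw counts per Ensembl gene for each of 6 libraries, whole numbers with no row for unassigned reads. Per the labels' protocols, RNeasy micro extraction was followed by the TruSeq Total RNA library kit, while the molecule label names polyadenylated RNA. Named in the submitters' processing notes are mm10, DESeq2 1.14.1, HTSeq 2.0.2, STAR 2.7.5 and cutadapt 4.2; no source used here gives settings or the annotation release. Symbols matched 54079 of 54232 gene IDs, and GENCODE M21 (GRCm38, that is mm10) gave coordinates and exon lengths.

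The test on the counts was that of edgeR 4.0.16 in R 4.3.3 (robust quasi-likelihood F test, TMM scaling, filterByExpr by group; all 6 libraries in 1 model with 3 residual degrees of freedom), Benjamini-Hochberg adjusted over 17299 genes and called at adjusted p under 0.05. The procedure was also run on simulated counts. Their spread was set rather than taken from these libraries, so that run does not show how many true differences are missed here. No 2 libraries held identical counts. Log2 CPM used a prior count of 2. Differences between repeats 1 and 2 correlated over genes between groups (control with PA, r = 0.346; control with PA + PS2, r = 0.361; PA with PA + PS2, r = 0.213), so the repeat number was also fitted as a block (2 residual degrees of freedom); this pairing comes from the data, as the labels name no shared litter, batch or day, and library names carry T1 in every repeat 1 but other T numbers in repeat 2.

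All 10 members are reported. From each pathway list, genes past the threshold in any comparison were named (up to 8), plus the 4 others highest in CPM per kilobase. The members, lists and tests were chosen with earlier results of these data known. The alternatives tried were library totals alone, RLE size factors, DESeq2 1.42.0, no filter, the block in edgeR and DESeq2, only the 2 groups compared with the block, and leaving out each library with and without the block.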

Additional observations from a re-analysis of the deposited data

How the results depend on the processing

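The numbers of genes called over the whole table depended on the model, while the other 9 HIF system genes gave 0 calls in any comparison under the 19 alternatives. In PA versus control, PA + PS2 versus control and PA + PS2 versus PA, 0, 0 and 0 genes were called, also with RLE size factors or library totals alone. The counts became 2, 425 and 501 with no low-count filter, 0, 130 and 200 in DESeq2, 0, 121 and 263 with the replicate block, 1, 279 and 364 with the block in DESeq2, and 2, 705 and 131 with the block in only the 2 groups compared. Without the block, leaving out 1 library gave 0 in PA versus control, 0 to 29 in PA + PS2 versus control and 0 to 13 in PA + PS2 versus PA. With the block, leaving out control repeat 1, control repeat 2, PA repeat 1, PA repeat 2, PA + PS2 repeat 1 or PA + PS2 repeat 2 gave 1, 0, 31, 35, 0 and 0 in PA versus control, 137, 4, 874, 816, 942 and 15 in PA + PS2 versus control, and 295, 250, 1008, 196, 1021 and 32 in PA + PS2 versus PA. A group left with 1 library is assumed to vary like the others. The cause was not tested.

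Epas1 had a log2 fold change of -2.58 to -1.80 in PA + PS2 versus control, -2.59 to -1.54 in PA + PS2 versus PA and -0.66 to 0.39 in PA versus control over the alternatives. The other 9 members ran from -0.33 to 0.37, -0.57 to 0.28 and -0.16 to 0.65. The median of the shared HIF targets was -0.16 to -0.02, -0.18 to -0.07 and -0.03 to 0.03. Of 912 values of the 16 uncalled list genes named, 13 passed the threshold, those of Npas4 (lower) and Nrp1 (higher) in the comparisons with PA + PS2. The replicate block added calls for 6 pathway list genes (Anxa2, Zfp36l1, Aldoc, Loxl2, Ccnd1 and Nrp2) and 22 other genes of the marker lists, and for 0 of the other 9 HIF system genes. At the level of Epas1 and Egln3, with 2 libraries per group, only large differences can be seen.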
